A study of Homo sapiens with 3 samples.

Results

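Knockdown of RBBP5 in PLC, an established line of human liver cancer cells, was followed by RNA sequencing, and the library was compared with that of the control labelled NTC, taken here as a non-targeting control. The comparison uses 2 of the 3 libraries of the series, 1 labelled shRBBP5 and 1 labelled NTC; the remaining library, labelled shHKDC1, carries a knockdown of the hexokinase-domain protein HKDC1 and is quoted only beside them. The study asked whether RBBP5 and HKDC1 govern which genes these cells express. The hairpin sequence, the time after knockdown, and whether the cells were a pool or a clone are not stated in the labels used here. Every feature with a mean of at least 1 CPM (counts relative to the scaled size of the library) over the 3 libraries was taken as measured. That left 1015 of 11642 named genes, of which 913 are protein coding, and 12355 of 16301 anonymous loci that the transcript assembly numbered without a gene name. Since each group is 1 library, no test was made between groups and none of the differences below was checked on a second culture. Brackets hold 95% intervals for the error of counting fragments, nothing else.

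RBBP5 is a core subunit, with WDR5, ASH2L and DPY30, of the SET1 and MLL complexes, the enzymes that methylate lysine 4 of histone H3 (H3K4). The trimethylated form of this mark sits at the promoters of active genes, and most strongly at promoters rich in CG dinucleotides (CpG islands). Without the shared subunits the catalytic SET domain proteins have little activity.

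The NTC library held 40437578 fragments, the shRBBP5 library 38633478 and the shHKDC1 library 28889040, each taken as 4 units of the deposited table, with 99.43% to 99.60% of the units in anonymous loci. RBBP5 and HKDC1 have no row of their own among the named genes, so the loss of the targeted transcript was not checked here. Of 16 hepatocyte markers 3 had rows (FGB, F5 and, for some of its transcripts only, F11), and ALB, APOA1 and AFP were not among them. Their summed level was 8.66 CPM in NTC, 6.01 in shRBBP5 and 2.05 in shHKDC1, and 5.90, 5.40 and 1.59 without F11, which was lower in shRBBP5. Leukocyte markers summed to 0.576 CPM in NTC and 0.928 in shRBBP5, with PTPRC, CD3E, CD3D and MS4A1 at 0 in all libraries. Endothelial markers stood at 0.160 and 0.163 CPM. In bulk RNA, fewer cells of a type and less RNA per cell cannot be told apart.

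Because RBBP5 belongs to complexes whose mark is typical of CpG-rich promoters, the 250 bases before the start of 4 called genes are shown, from RefSeq on GRCh38.p14, with CG dinucleotides in capitals. A gene was called when its log2 ratio of shRBBP5 over NTC was at least 1 in size, that is 2-fold, and its interval excluded 0. CMPK2 (chr2:6866636-6866885, minus strand) had the lowest ratio among called protein-coding genes with at least 3 fragments in each library and an entry in the RefSeq table, and IL21R (chr16:27427021-27427270, plus strand) the highest. CCL28 (chr5:43412392-43412641, minus strand) and RAPGEF6 (chr5:131635230-131635479, minus strand) had the lowest and the highest ratio of observed to expected CG among called genes with a mean of at least 2 CPM.
CMPK2: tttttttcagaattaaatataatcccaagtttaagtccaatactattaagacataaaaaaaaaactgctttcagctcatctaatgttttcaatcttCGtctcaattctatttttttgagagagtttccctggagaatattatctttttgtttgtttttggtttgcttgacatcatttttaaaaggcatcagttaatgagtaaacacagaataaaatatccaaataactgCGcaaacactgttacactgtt
IL21R: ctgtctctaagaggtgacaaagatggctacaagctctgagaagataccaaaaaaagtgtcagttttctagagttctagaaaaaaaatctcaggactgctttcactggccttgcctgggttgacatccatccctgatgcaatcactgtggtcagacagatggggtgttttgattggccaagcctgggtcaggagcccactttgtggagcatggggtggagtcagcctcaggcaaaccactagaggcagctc
CCL28: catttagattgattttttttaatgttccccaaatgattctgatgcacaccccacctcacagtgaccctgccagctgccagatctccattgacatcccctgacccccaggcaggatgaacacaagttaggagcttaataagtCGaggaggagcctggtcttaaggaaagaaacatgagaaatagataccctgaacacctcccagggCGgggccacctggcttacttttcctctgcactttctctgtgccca
RAPGEF6: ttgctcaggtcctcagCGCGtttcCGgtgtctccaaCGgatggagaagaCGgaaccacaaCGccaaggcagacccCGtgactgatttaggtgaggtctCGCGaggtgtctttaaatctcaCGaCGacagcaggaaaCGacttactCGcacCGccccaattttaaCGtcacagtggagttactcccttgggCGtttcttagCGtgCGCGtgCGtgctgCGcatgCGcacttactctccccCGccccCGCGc
The CMPK2 window holds 2 CG dinucleotides at 28.4% GC and the IL21R window 0 at 49.2% GC. The CCL28 window holds 2, at an observed to expected ratio of 0.14, while the RAPGEF6 window holds 25, at 1.18. Both CCL28 and RAPGEF6 were called lower, but they were picked as the extremes of CG content.

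More named genes were lower than higher in the RBBP5 knockdown. Of the 1015 measured named genes, 88 were called lower (8.67% of those tested) and 23 higher (2.27%), while 904 were neither. The median log2 ratio was −0.20, with quartiles of −0.56 and 0.09, and 681 genes (67.1%) lay below 0. The lower genes reached further: 23 had a log2 ratio of −1.5 or less, against 3 of the higher ones at 1.5 or more. Anonymous loci were closer to even, with 269 lower (2.18%) and 208 higher (1.68%) and a median of 0.02. With libraries scaled by total counts alone the loci split into 348 lower and 168 higher, so that higher loci made up 32.6% of calls in place of 43.6%. Named genes also had fewer counts: the median named gene had 2.60 CPM and the median locus 28.1.

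**Figure D1:**
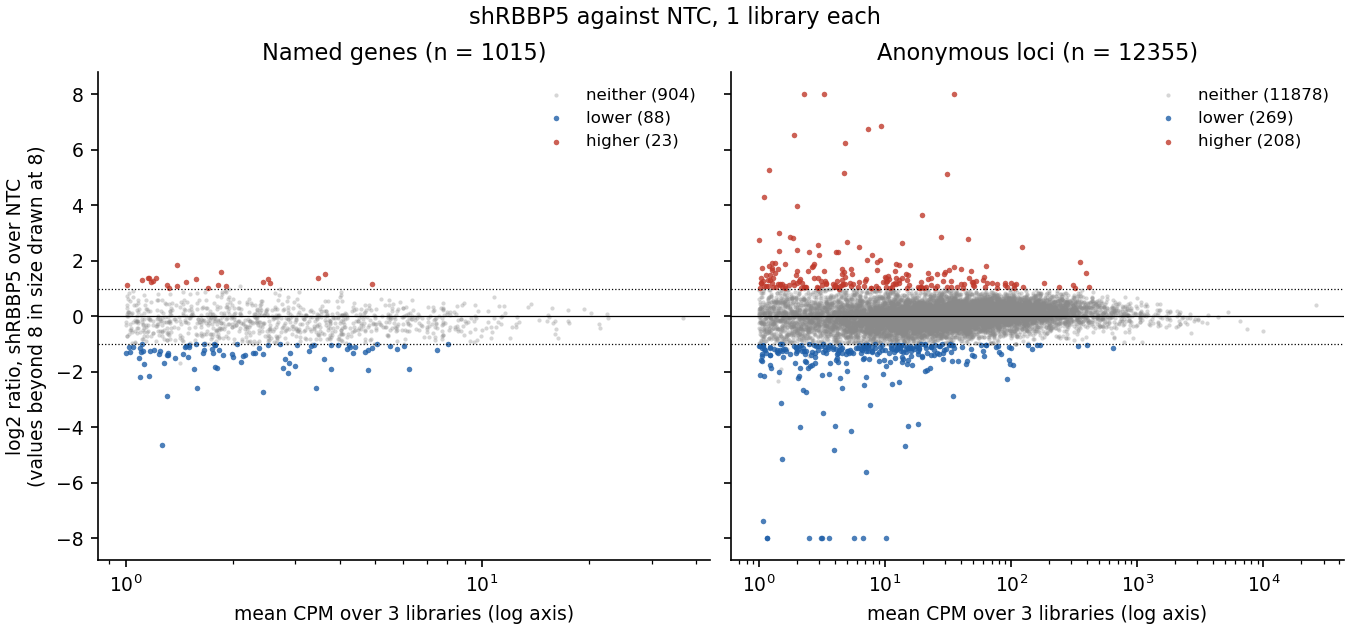
Log2 ratio of shRBBP5 over NTC (vertical) against mean CPM over the 3 libraries (horizontal, log axis) for 1015 named genes (left) and 12355 anonymous loci (right), with 1 point per feature and dotted lines at 2-fold. Called features, in blue (lower) and red (higher), thin out as CPM rises, and the named genes called lower (88) outnumber those called higher (23).

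Calls were concentrated among genes with few fragments. Between 1 and 2 CPM, 16.8% of 374 named genes were called, and between 2 and 5 CPM 9.65% of 425. Between 5 and 20 CPM the share was 3.33% of 210, with 7 lower and 0 higher. The 6 named genes above 20 CPM were all neither. Among loci the called share also dropped with level, from 13.7% at 1 to 2 CPM to 0.874% at 100 CPM and above. The median ratio of the named genes below 20 CPM stayed between −0.24 and −0.19 in each range of level. That of the loci was −0.01 at 1 to 2 CPM, −0.07 at 2 to 5 and −0.09 at 5 to 20. It was 0.04 at 20 to 100 CPM and 0.15 at 100 CPM and above. Of the 111 called named genes, 20 had a mean below 1 CPM over NTC and shRBBP5 and were measured only through their level in shHKDC1. Counting over NTC and shRBBP5 alone gave 77 lower and 21 higher of 989.

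Few genes of the H3K4 machinery itself could be followed. Of 63 genes for subunits of H3K4 methyltransferase complexes and for enzymes and readers of the mark, 6 had rows and 3 were measured. PYGO1, a Wnt coactivator whose PHD finger binds methylated H3K4, was at 9.96 CPM in NTC, 4.95 in shRBBP5 and 9.19 in shHKDC1 (log2 −1.01 [−1.26 to −0.77]). It was thus called lower, close to the 2-fold bound. BOD1L1, a partner of the SET1 methyltransferase that protects stalled replication forks, was at 10.0 CPM in NTC and 6.94 in shRBBP5 (log2 −0.53), and was neither. ING2, which brings a histone deacetylase complex to trimethylated H3K4, stood at 2.92 CPM in both.

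Of 8 measured chromatin regulators, 2 were called lower (25%, beside 8.67% of all named genes) and 0 higher, and the median log2 ratio was −0.48, beside −0.20 for all named genes. CHD9, a chromatin-remodelling helicase, was at 9.01 CPM in NTC, 4.02 in shRBBP5 and 4.27 in shHKDC1 (log2 −1.17 [−1.44 to −0.90]). TET2, which oxidises methylcytosine in DNA, was at 5.80, 2.69 and 4.30 CPM in the same order (−1.11 [−1.45 to −0.78]). Both knockdown libraries were below NTC for these genes, but they share that control, so the comparisons are not independent. Among members not called, ATRX, a remodeller of repeat chromatin, was at 18.2 CPM in NTC and 10.5 in shRBBP5, and the histone acetyltransferase gene KAT6B at 12.8 and 8.91. ARID5B was the 1 member above 0, at 3.69 and 5.40 CPM (0.55). Uncalled list members, in this and later groups, were picked for mention with their values in view. In lists this small, here and later, the share called rests on very few genes and was not tested against that of all named genes.

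DNA-binding transcription factors outside the zinc finger list had 7 of 28 measured members lower (25%, beside 8.67% of all named genes) and 0 higher, with a median of −0.47. Of the 7, 4 (RUNX1, ETS1, CDX2 and MITF) averaged below 1 CPM over NTC and shRBBP5 and were measured only through shHKDC1, so the count is a description. They act in unlike lineages. RUNX1, a master factor of blood formation, was at 0.622 CPM in NTC, 0.169 in shRBBP5 and 7.53 in shHKDC1 (log2 −1.86 [−3.26 to −0.58]), on 27 and 7 fragments in the first 2. ETS1, another blood and vessel factor, was at 1.19, 0.570 and 8.40 CPM. For both genes shRBBP5 was below NTC; that shHKDC1 was the highest follows from the filter. CDX2, which specifies intestinal epithelium, was at 1.44 CPM in NTC and 0.514 in shRBBP5 (−1.48 [−2.24 to −0.72]). MITF, the melanocyte factor, was at 1.38 and 0.564 CPM, and the forkhead gene FOXP2 at 1.94 and 0.752. The better covered of the 7 were TFCP2L1, a grainyhead-family factor, at 4.44 CPM in NTC, 1.79 in shRBBP5 and 2.45 in shHKDC1 (−1.31 [−1.74 to −0.92]), and SP4, a GC-box binding factor, at 5.49, 2.69 and 3.68 CPM (−1.03 [−1.38 to −0.70]).

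Genes of the zinc finger list, many of which encode KRAB-class repressors, had 9 of 146 measured members called (6.16%), beside 10.9% of all named genes. Of the 9, 8 were lower, among them ZNF229, ZNF485 and ZNF773, which were measured only through shHKDC1, and the median was −0.29. ZNF606 was at 3.27 CPM in NTC, 1.24 in shRBBP5 and 1.11 in shHKDC1 (log2 −1.40 [−1.88 to −0.91]), and ZNF300 at 3.21, 1.25 and 2.86 CPM (−1.36). ZNF615, ZNF229, ZNF485, ZNF624, ZNF488 and ZNF773 were lower by log2 ratios from −1.32 to −1.003. ZBTB8B was the 1 higher member, at 1.23 CPM in NTC, 3.13 in shRBBP5 and 0.378 in shHKDC1 (1.34 [0.88 to 1.83]). Zinc finger genes share much sequence with their paralogs, and the labels used here do not state how shared reads were split.

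Of 7 measured genes of the interferon response and innate RNA sensing, 3 were lower (42.9%, beside 8.67% of all named genes) and 0 higher, with a median of −0.92. CMPK2, an interferon-induced mitochondrial nucleotide kinase whose CpG-poor start is shown above, was at 3.80 CPM in NTC, 0.577 in shRBBP5 and 2.92 in shHKDC1. It was 6.56-fold lower in shRBBP5 than in NTC (log2 −2.71 [−3.42 to −2.09]). OASL, which enhances RNA sensing, was at 1.67, 0.671 and 4.48 CPM (−1.31 [−1.99 to −0.65]), and the ADP-ribosyltransferase gene PARP14 at 6.39, 2.81 and 3.32 CPM (−1.18 [−1.52 to −0.87]). In each of the 3 the shRBBP5 library was the lowest. TRIM56, a ubiquitin ligase of antiviral signalling, was at 10.9 CPM in NTC and 5.74 in shRBBP5 (−0.92), short of the bound. RIGI, the sensor of viral RNA, was at 6.43 and 6.44 CPM, SP140L at 3.34 and 3.23, and GBP2, an interferon-induced GTPase, at 1.83 and 2.82 (0.63). Thus 3 members passed the 2-fold bound and 4 did not.

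**Figure D2:**
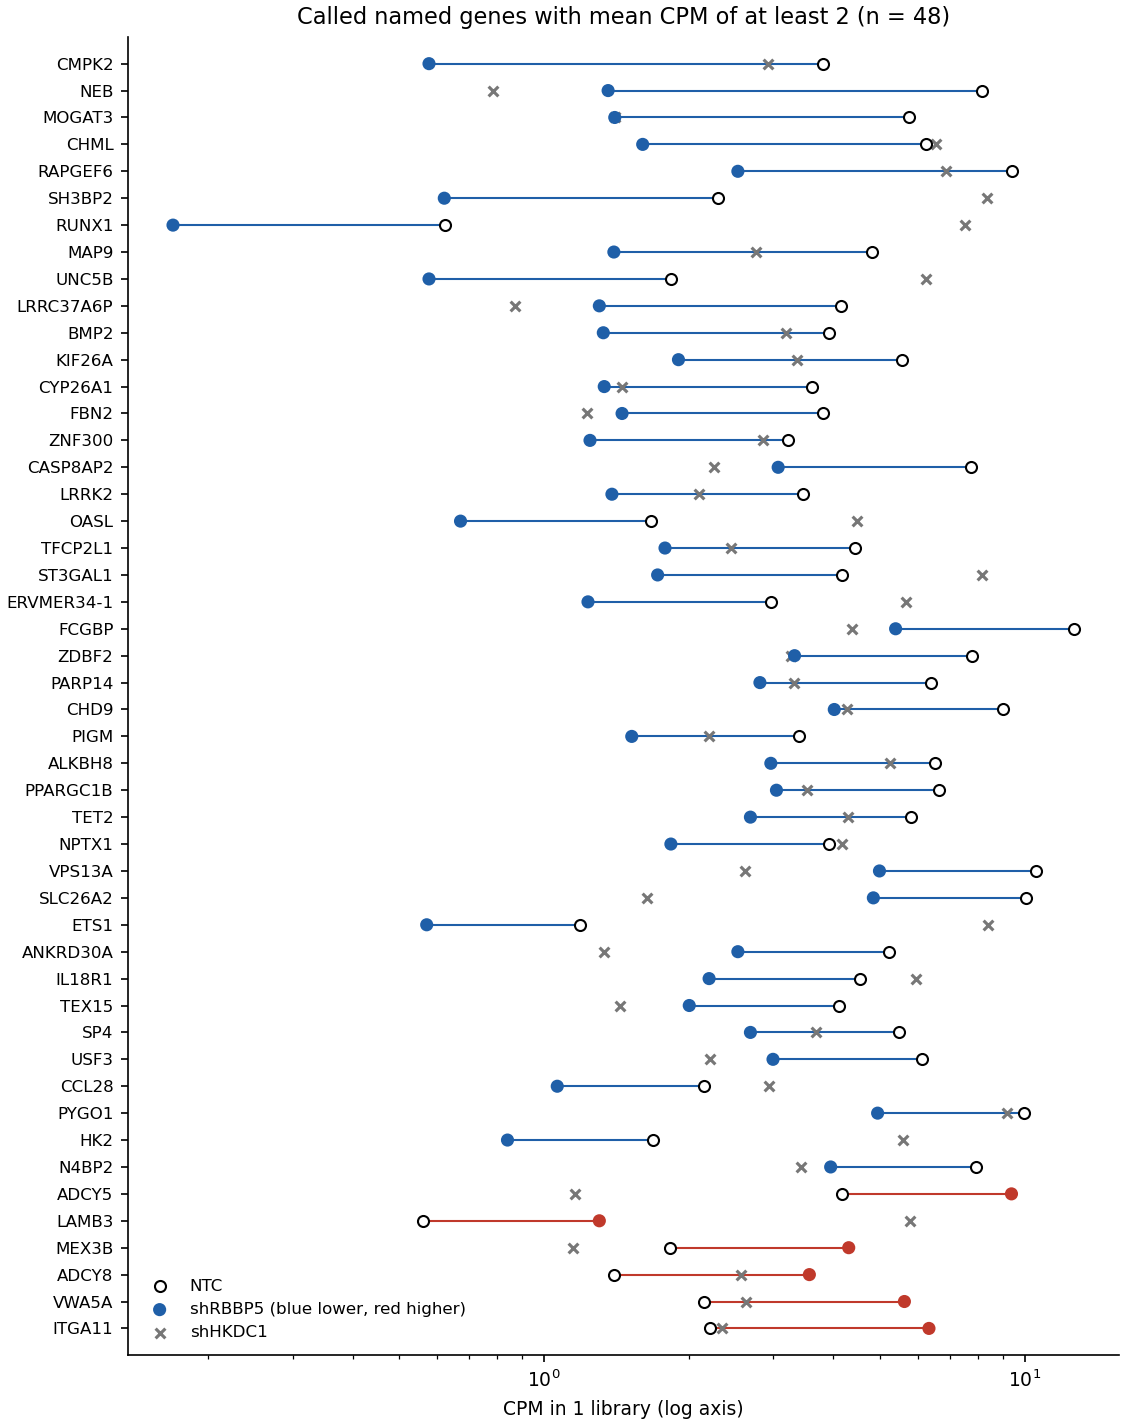
CPM (log axis) of the 48 called named genes with a mean of at least 2 CPM, 1 gene per line, in NTC (open circles), shRBBP5 (filled, blue where lower and red where higher) and shHKDC1 (crosses), 1 library each. CMPK2 has the longest line among the lower genes, from 3.80 to 0.577 CPM, and ITGA11 among the higher, from 2.22 to 6.32.

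Genes of glucose use had 2 of 7 measured members lower (28.6%, beside 8.67% of all named genes) and 0 higher, with a median of −0.63. PDK4, a kinase that switches off pyruvate dehydrogenase, was at 1.94 CPM in NTC, 0.439 in shRBBP5 and 1.12 in shHKDC1 (log2 −2.14 [−2.93 to −1.36]). HK2, the hexokinase typical of tumours, was at 1.69, 0.840 and 5.59 CPM (−1.005 [−1.62 to −0.38]). The HK2 call rests on the bound itself: with DESeq2 size factors the ratio was −0.998, no longer past it. PKLR, the liver pyruvate kinase, was at 1.49 CPM in NTC and 2.74 in shRBBP5 (0.88) and was neither. The PI3-kinase genes PIK3R1 and PIK3CA had ratios of −0.83 and −0.63. TXNIP, a glucose-induced inhibitor of glucose uptake that stands on no list and was chosen after its values were seen, was called higher, at 1.64 CPM in NTC, 3.55 in shRBBP5 and 0.252 in shHKDC1 (1.11 [0.70 to 1.55]).

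Of 15 measured genes of liver metabolism, 3 were lower (20%, beside 8.67% of all named genes), 0 higher and 12 neither, and the median was −0.03. MOGAT3, which builds diacylglycerol from monoacylglycerol, was at 5.75 CPM in NTC, 1.40 in shRBBP5 and 1.40 in shHKDC1 (log2 −2.03 [−2.48 to −1.61]). CYP26A1, which breaks down retinoic acid, was at 3.62, 1.33 and 1.45 CPM (−1.44 [−1.93 to −0.99]). BDH1, which interconverts the ketone bodies, was at 2.94, 1.15 and 0.271 CPM (−1.35 [−1.87 to −0.86]). All 3 were well below NTC in both knockdown libraries, which share that control, so the comparisons are not independent. BAAT, which conjugates bile acids, was at 3.74 CPM in NTC and 4.02 in shRBBP5. The carotenoid-cleaving BCO2 had the highest ratio of the list, 0.86, at 1.84 and 3.36 CPM.

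Among secreted liver proteins, FGB, F5 and C8A were not called. The fibrinogen gene FGB was at 2.41 CPM in NTC, 2.30 in shRBBP5 and 0.6001 in shHKDC1 (log2 −0.07 [−0.49 to 0.35]). Coagulation factor F5 was at 3.49, 3.10 and 0.987 CPM (−0.17 [−0.52 to 0.18]), and complement C8A at 1.65, 2.21 and 0.290 CPM (0.42 [−0.04 to 0.90]). For these 3 genes shRBBP5 stood near NTC and shHKDC1 was the lowest library.

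Ligands and receptors included calls in both directions, 4 lower (22.2%, beside 8.67% of all named genes) and 1 higher (5.56%, beside 2.27%) among 18 measured, with a median of −0.07. LIF and FLT4, 2 of the 4, were measured only through shHKDC1. BMP2, a ligand of the TGF-beta superfamily, was at 3.91 CPM in NTC, 1.33 in shRBBP5 and 3.19 in shHKDC1 (log2 −1.55 [−2.03 to −1.10]). LIF, a cytokine of the interleukin-6 family, was at 0.411, 0.0877 and 2.80 CPM, on 18 fragments in NTC and 4 in shRBBP5. Its receptor gene LIFR was at 2.67 CPM in NTC and 1.48 in shRBBP5 (−0.85), and was neither. FLT4, a receptor for lymphatic growth factors, was at 0.673, 0.238 and 3.22 CPM in NTC, shRBBP5 and shHKDC1. IL18R1, the interleukin-18 receptor, was at 4.54, 2.21 and 5.95 CPM (−1.04 [−1.42 to −0.67]). PDGFRB, a receptor typical of stellate cells and pericytes, was the 1 higher member, at 0.605 CPM in NTC, 1.56 in shRBBP5 and 1.48 in shHKDC1 (1.36 [0.66 to 2.04]). Of 10 stellate cell or fibroblast markers 8 had rows, with COL1A2 and LRAT at 0 in all libraries, and the 7 other than PDGFRB summed to 0.348 CPM in NTC, 0.301 in shRBBP5 and 0.135 in shHKDC1.

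Adhesion and matrix genes had 2 higher and 2 lower of 23 measured (8.70% each way, beside 2.27% and 8.67% of all named genes) and a median of 0.05. ITGA11, the alpha chain of a collagen-binding integrin, was at 2.22 CPM in NTC, 6.32 in shRBBP5 and 2.34 in shHKDC1, which is 2.85-fold higher in shRBBP5 than in NTC (log2 1.51 [1.17 to 1.87]). LAMB3, a laminin chain of epithelial basement membranes, was at 0.559, 1.30 and 5.79 CPM (1.22 [0.48 to 1.94]). In ITGA11 the shRBBP5 library stood alone, whereas LAMB3 was measured only through its level in shHKDC1. FBN2, a fibrillin of elastic microfibrils, was at 3.81, 1.45 and 1.23 CPM (−1.39 [−1.85 to −0.95]), and the protocadherin PCDH17 at 2.70, 1.33 and 1.28 CPM. The epithelial cadherin gene CDH1 was at 5.09 CPM in NTC and 2.97 in shRBBP5 (−0.78) and was neither.

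**Figure D3:**
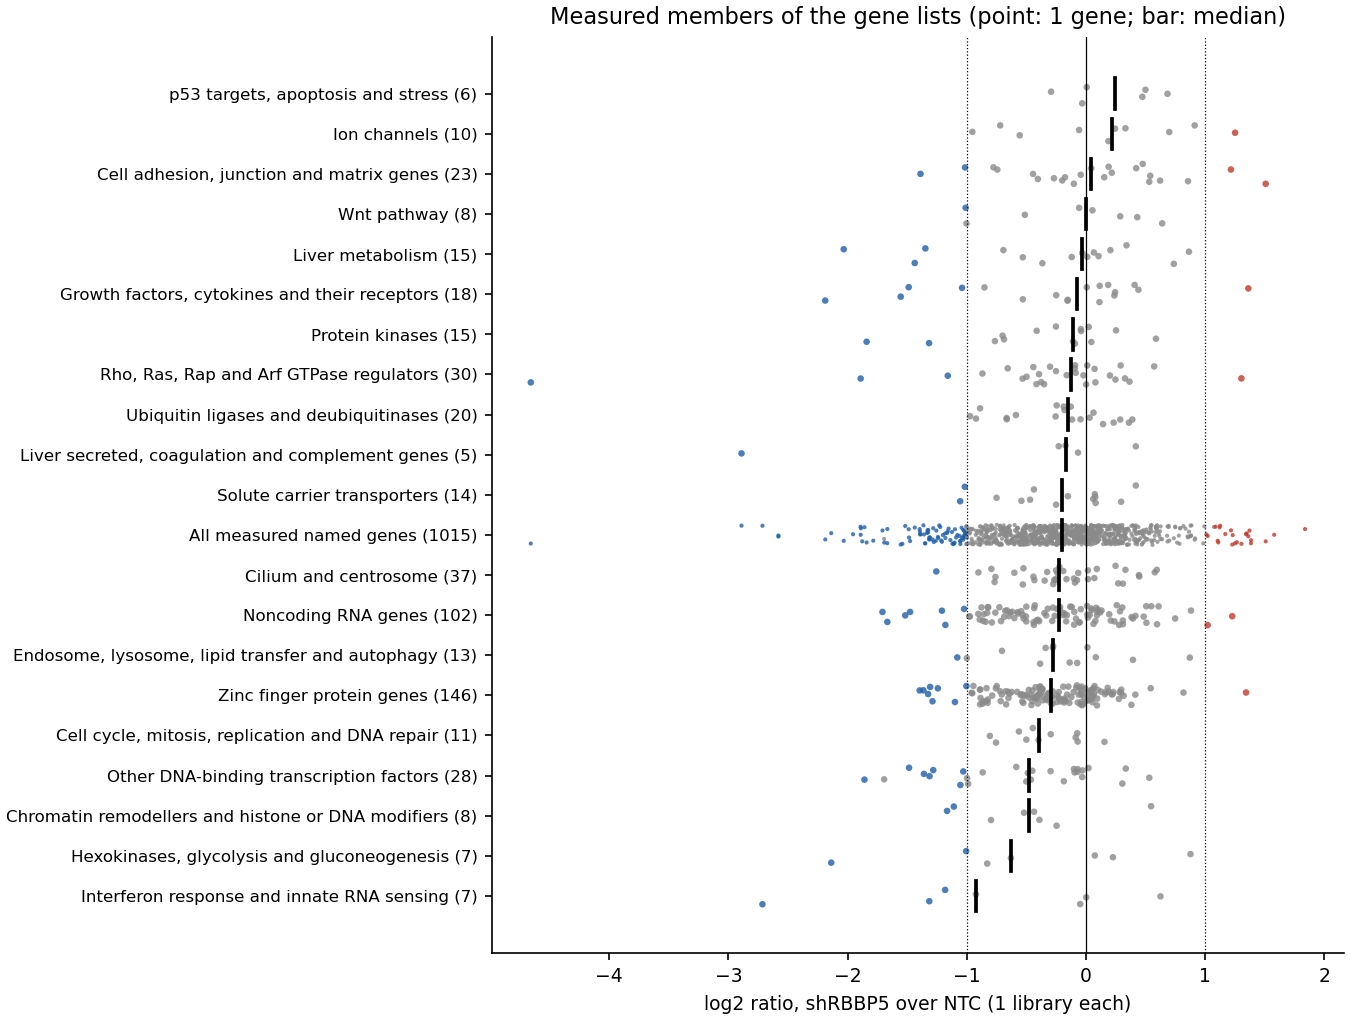
Log2 ratio of shRBBP5 over NTC (horizontal) for lists with at least 5 measured genes (number in brackets) and for all 1015 measured named genes. Each gene is 1 point, blue for lower, red for higher and grey for neither. Black bars are medians and dotted lines mark 2-fold. The smaller lists, both of H3K4 genes, ABC transporters and ADAM metalloproteinases, are not drawn. The interferon list has the lowest median, −0.92, the p53 list the highest, 0.24, and all named genes −0.20; lists with few genes give coarse medians.

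Among regulators of small GTPases, 3 of 30 measured genes were lower (10.0%) and 1 higher (3.33%), near the 8.67% and 2.27% of all named genes, and AGAP9 and TBC1D4, 2 of the 3, were measured only through shHKDC1. RAPGEF6, an exchange factor for Rap whose CpG-rich start is shown above, was at 9.39 CPM in NTC, 2.53 in shRBBP5 and 6.85 in shHKDC1 (log2 −1.89 [−2.22 to −1.58]), on 412 fragments in NTC and 101 in shRBBP5. That made it the largest fold among the 7 called genes with a mean of at least 5 CPM. TBC1D4, a Rab GTPase-activating protein of insulin-driven glucose uptake, was at 0.970, 0.432 and 1.89 CPM in NTC, shRBBP5 and shHKDC1. AGAP9 had the lowest ratio of all named genes, at 1.501 CPM in NTC, 0.0564 in shRBBP5 and 2.25 in shHKDC1 (−4.66 [−7.99 to −3.00]), but on 2 fragments in shRBBP5. TBC1D3H was higher, at 0.719 and 1.78 CPM in NTC and shRBBP5 (1.30). AGAP9 and TBC1D3H belong to families of near-identical copies, so their values are uncertain.

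The share called was 13.3% of protein kinase genes, 14.3% of solute carriers and 10.0% of ion channels, beside 10.9% of all named genes. Of 15 measured protein kinase genes 2 were lower: TRIB2, a pseudokinase that steers protein degradation, at 2.45 CPM in NTC, 0.683 in shRBBP5 and 2.20 in shHKDC1 (log2 −1.84 [−2.53 to −1.25]), and LRRK2, the Parkinson's disease kinase, at 3.45, 1.39 and 2.10 CPM (−1.32 [−1.79 to −0.87]). Of 14 solute carriers 2 were lower. SLC26A2, which imports sulfate, was at 10.1 CPM in NTC, 4.84 in shRBBP5 and 1.64 in shHKDC1 (−1.05 [−1.31 to −0.81]), and SLC8A2, a sodium-calcium exchanger, at 2.44, 1.20 and 1.09 CPM. TRPV2, a calcium-permeable channel, was the 1 called gene of 10 ion channels, higher at 1.89 CPM in shRBBP5 against 0.793 in NTC (1.25 [0.66 to 1.88]). Neither of the 2 ABC transporters was called.

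Most genes of the structural and housekeeping lists were neither, as were 904 of all 1015 measured named genes. The cilium and centrosome list had 1 of 37 measured genes lower (2.7%, beside 8.67% of all named genes). It was SPEF2, a protein of the sperm flagellum, at 2.06 CPM in NTC and 0.859 in shRBBP5 (log2 −1.25 [−1.88 to −0.69]). Of 13 endosome and lipid transfer genes 1 was lower (7.69%, near that of all named genes). VPS13A, a bridge-like lipid transporter, was at 10.5 CPM in NTC, 4.99 in shRBBP5 and 2.62 in shHKDC1 (−1.08 [−1.33 to −0.84]). The early endosome tether EEA1 lay just outside the bound, at 10.8 and 5.40 CPM in NTC and shRBBP5 (−0.999), as did MEIS2 (−0.997) and XRN1 (−0.992), while HK2 (−1.005), ZNF773 (−1.003) and N4BP2 (−1.002) lay just inside it. On the other side H2BC4 (0.994) lay just outside and LYRM9 (1.01) just inside. No gene was called among 11 measured genes of cell cycle and DNA repair, 20 ubiquitin ligases and deubiquitinases, 6 p53 and stress genes, and 4 ADAM metalloproteinases. Their medians were −0.40, −0.15, 0.24 and 0.15. With 10.9% of all named genes called, 0 calls in lists this small does not set them apart. Of the Wnt list, only PYGO1 was called among 8 measured genes (12.5%, near the share of all named genes). The feedback inhibitor AXIN2 was at 5.52 CPM in NTC and 7.45 in shRBBP5 (0.43).

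Of the genes on no list, 489 were measured, with 39 lower (7.98%) and 15 higher (3.07%), near the 8.67% and 2.27% of all named genes. NEB, the giant thin-filament protein of muscle, was at 8.15 CPM in NTC, 1.36 in shRBBP5 and 0.784 in shHKDC1, which is 5.98-fold lower in shRBBP5 than in NTC (log2 −2.58 [−3.03 to −2.17]). CHML, an escort protein that delivers Rab GTPases for lipid modification, was at 6.23, 1.60 and 6.53 CPM (−1.95 [−2.37 to −1.56]). For NEB both knockdown libraries were below the NTC library they share, while for CHML shHKDC1 stood near NTC. ANKRD63 was at 2.60, 0.432 and 1.74 CPM (−2.58 [−3.44 to −1.87]) and KIAA0040 at 1.71, 0.458 and 2.52. SH3BP2, an adaptor of immune and bone signalling, was at 2.31, 0.620 and 8.36 CPM (−1.89 [−2.57 to −1.24]), and UNC5B, a netrin receptor, at 1.84, 0.577 and 6.24 (−1.67 [−2.42 to −0.998]). These were lowest in shRBBP5 and highest in shHKDC1, except ANKRD63, which was highest in NTC.

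The microtubule-associated genes MAP9 and MAP6 were both lower, at 4.82 CPM in NTC and 1.40 in shRBBP5 and at 1.77 and 0.545 (log2 −1.78 and −1.69), as was KIF26A, an atypical kinesin, at 5.55 and 1.91 CPM (−1.54 [−1.93 to −1.16]). CASP8AP2, which acts in histone mRNA processing, was at 7.74 CPM in NTC, 3.07 in shRBBP5 and 2.26 in shHKDC1 (−1.33 [−1.64 to −1.03]). FCGBP, a mucin-like secreted protein, was at 12.7, 5.39 and 4.37 CPM (−1.23 [−1.46 to −1.001]), on 554 fragments in NTC and 215 in shRBBP5. FCGBP is 1 of the 7 called genes with a mean of at least 5 CPM, while MAP6 rests on 78 fragments in NTC and 22 in shRBBP5. Other lower genes on no list with a mean of at least 2 CPM had ratios between −1.28 and −1.002. They were ST3GAL1, which adds sialic acid to glycans, the imprinted gene ZDBF2, PIGM of GPI anchor synthesis, the tRNA methyltransferase ALKBH8, the metabolic coactivator PPARGC1B, NPTX1, ERVMER34-1, ANKRD30A, TEX15, USF3, N4BP2 and the mucosal chemokine CCL28.

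The higher genes on no list included 2 adenylate cyclases, the enzymes that make cyclic AMP. ADCY5 was at 4.17 CPM in NTC, 9.39 in shRBBP5 and 1.16 in shHKDC1 (log2 1.17 [0.91 to 1.43]), on 183 and 375 fragments in the first 2, and ADCY8 at 1.40, 3.57 and 2.57 CPM (1.35 [0.91 to 1.81]). In ADCY5 the libraries of the knockdowns lay on opposite sides of NTC. VWA5A was at 2.15, 5.62 and 2.63 CPM (1.38 [1.03 to 1.75]), the RNA-binding MEX3B at 1.83, 4.31 and 1.15 (1.23 [0.85 to 1.64]) and IGDCC3, an immunoglobulin superfamily receptor, at 0.902, 2.70 and 1.96 (1.58 [1.03 to 2.13]). IL21R, the interleukin-21 receptor, had the highest ratio of the named genes, at 0.108 CPM in NTC, 0.395 in shRBBP5 and 3.69 in shHKDC1 (1.84 [0.30 to 3.62]). It was measured only through shHKDC1 and held 5 fragments in NTC and 16 in shRBBP5. PKD1L1 and TRO had ratios of 1.37 and 1.39. HLA-DQB1, a polymorphic gene with close paralogs, had a ratio of 1.27, on 23 and 50 fragments, and was measured only through shHKDC1.

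Noncoding and pseudogene transcripts had 7 lower (6.86%) and 2 higher (1.96%) of 102 measured and a median of −0.23. The 913 protein-coding genes had 81 lower (8.87%), 21 higher (2.3%) and a median of −0.20. JAKMIP1-DT, measured only through shHKDC1, was at 1.36 CPM in NTC, 0.414 in shRBBP5 and 1.62 in shHKDC1 (log2 −1.71 [−2.56 to −0.89]). Among pseudogenes LRRC37A6P was at 4.14, 1.30 and 0.871 CPM (−1.67 [−2.15 to −1.22]) and AHCTF1P1 at 3.98, 1.43 and 0.590 CPM (−1.48 [−1.93 to −1.04]). Both were lowest in shHKDC1. BEND3P3, ZNF37BP, LINC02983 and SLC9A7P1 were lower by ratios from −1.52 to −1.02. DNM1P35 (1.23) and LINC00910 (1.02) were higher. Pseudogene reads can come from the parent gene or other copies, and the labels used here do not state how strand was handled, so these values are uncertain.

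The named genes with the most counts, not corrected for length, were all neither. ZC3H14, which binds poly(A) tails, was at 46.3 CPM in NTC, 44.2 in shRBBP5 and 19.4 in shHKDC1 (log2 −0.07). TFDP2, a partner of E2F, was at 22.7 and 21.9 CPM in NTC and shRBBP5, ZNF778 at 24.7 and 26.0, and the lysosomal TMEM106B at 25.4 and 18.8 (−0.43). CEP78, PURA, GPR161, SLC60A2, DDHD1 and TTC7B complete the 10. None of them came within reach of 2-fold.

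Promoter sequence was described for called and uncalled genes alike. Only the first start entered for each gene in the RefSeq promoter table was used, here and for the printed windows. Whether these cells begin transcription at that start was not tested. Over the 250 bases before the start, the median ratio of observed to expected CG was 0.711 in 64 of 81 lower protein-coding genes with a RefSeq promoter, 0.564 in 16 of 21 higher ones and 0.782 in 656 of 811 that were neither, beside 0.737 in all 15843 protein-coding promoters of the table. A ratio of at least 0.6, a usual bound for CpG islands, was met by 73.4% of the lower, 50.0% of the higher and 71.5% of the others. Across 736 measured genes the ratio of CG had a Spearman rho of −0.05 with the log2 ratio, and GC content 0.04; these are descriptions across genes, which are not independent replicates and share the same 2 libraries. The motif CCAAT, sought on both strands, occurred in 40.6% of the lower, 37.5% of the higher and 37.0% of the other promoters, and in 34.5% of all. TATAAA occurred in 1.56%, 0% and 4.12%, and in 9.23% of all. CHML, with 39 CG dinucleotides, and NEB, with 2, are examples of lower genes. The printed CCL28 and RAPGEF6 starts were chosen as extremes of the CG ratio, so they do not show how calls spread over it.

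**Figure D4:**
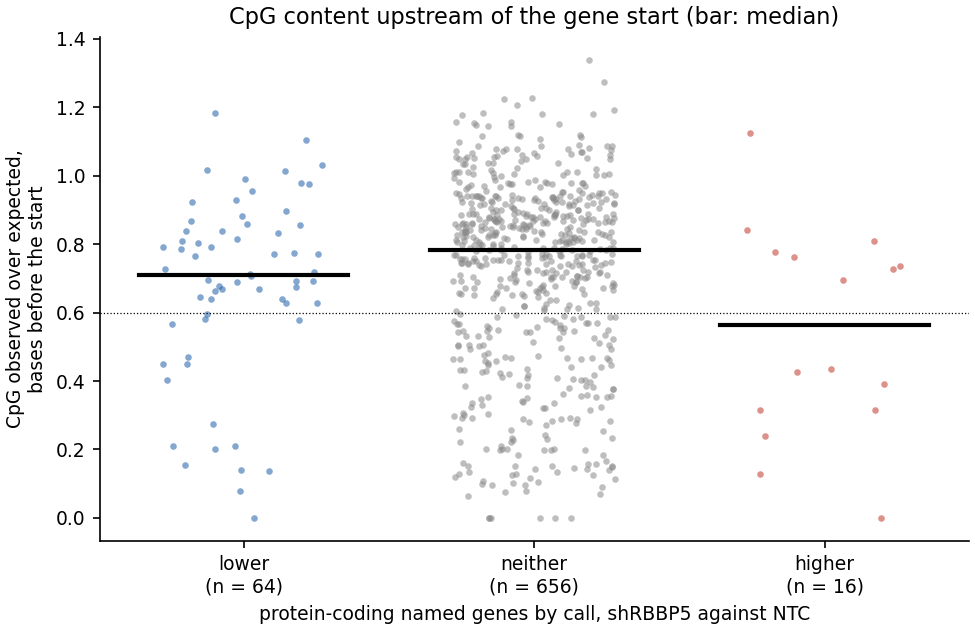
Ratio of observed to expected CG dinucleotides in the 250 bases before the start (vertical) for protein-coding genes called lower (64), neither (656) or higher (16), with 1 point per gene, a black bar at the median and a dotted line at 0.6. The 3 groups span overlapping ranges, with medians of 0.711, 0.782 and 0.564.

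The anonymous loci carry nearly all counts. The 6 called loci with most counts in each direction differed by up to 3.84-fold, while the largest log2 ratio among all loci of at least 100 CPM was 2.52. MSTRG.9699 was at 159 CPM in NTC, 609 in shRBBP5 and 291 in shHKDC1 (log2 1.94 [1.90 to 1.98]). MSTRG.6700 was at 217, 643 and 305 CPM (1.57 [1.53 to 1.60]), and MSTRG.3178 at 270, 585 and 67.9 CPM (1.11). MSTRG.8152, MSTRG.2848 and MSTRG.6968 were higher by 1.04, 1.00 and 1.04. The most abundant lower locus, MSTRG.11362, was at 946 CPM in NTC, 424 in shRBBP5 and 543 in shHKDC1 (−1.16 [−1.18 to −1.13]). MSTRG.8507, MSTRG.7558, MSTRG.11643, MSTRG.3318 and MSTRG.6149 had ratios from −1.18 to −1.03. At these depths the counting error is small, but the spread between cultures remains unmeasured. Which genes these loci hold was not analysed here.

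Among called loci with at least 3 fragments in both libraries, the 6 highest and the 6 lowest ratios fell on loci of neighbouring numbers. MSTRG.13894 was at 0.234 CPM in NTC, 27.6 in shRBBP5 and 0.0678 in shHKDC1 (log2 6.86 [6.03 to 7.98]), and MSTRG.13610 at 0.183, 14.1 and 0.165 CPM (6.25). MSTRG.13683 was at 19.2, 0.752 and 23.2 CPM (−4.67 [−5.25 to −4.15]) and MSTRG.13823 at 8.24, 0.163 and 12.8 CPM (−5.63). These 4 are present in some libraries and nearly absent in others. The others of these 12 were MSTRG.13601, MSTRG.13956, MSTRG.13792 and MSTRG.13775, higher by 5.18 to 6.74, and MSTRG.13581, MSTRG.13857, MSTRG.14055 and MSTRG.13810, with ratios from −5.15 to −3.95. Of all called loci, 33 were higher and 39 lower by at least 4-fold, and 7 had 0 units in shRBBP5 and 3 in NTC. MSTRG.14034, picked with its values in view like MSTRG.14046, was at 30.3 CPM in NTC, 0 in shRBBP5 and 0.0387 in shHKDC1, and MSTRG.14046 at 0, 36.1 and 69.2 CPM in the same order; no ratio is given for these.

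A stretch of the numbering, singled out after its values were seen, held many of these calls. Of the 123 measured loci numbered 13501 to 14000, 64 were called (52.0%), 40 higher and 24 lower. Among the other 12232 loci 413 were called (3.38%), 168 higher and 245 lower, and the next highest of the 34 bins of 500 numbers had 7.55%. Of the 36 called loci with at least 8-fold, 25 lay in that stretch. Its loci had a median of 5.66 CPM against 28.6 elsewhere. Summed over the stretch, the level was 1166 CPM in NTC, 1542 in shRBBP5 and 1657 in shHKDC1, so that shRBBP5 over NTC had a log2 ratio of 0.40 for the sum, beside 6.86 for MSTRG.13894 and −5.63 for MSTRG.13823 within it. The deposited table gives no position for these loci, and the part of the assembly in this pattern was not tested.

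**Figure D5:**
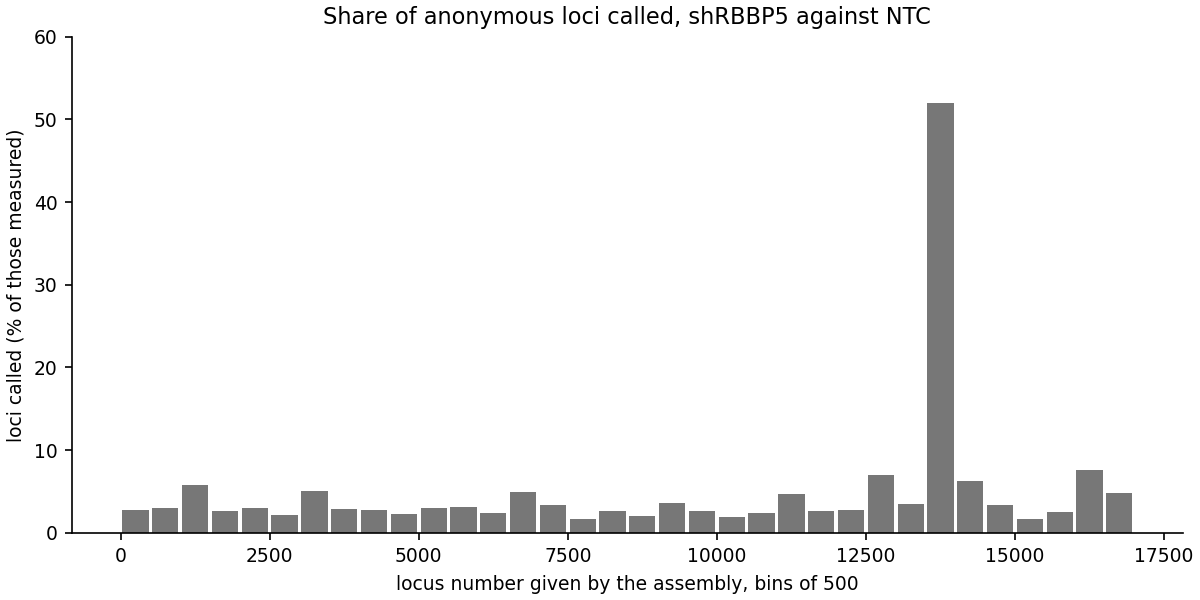
Share of measured anonymous loci called in shRBBP5 against NTC (vertical, percent) in bins of 500 consecutive locus numbers (horizontal). The bin from 13501 to 14000 stands at 52.0%, and every other bin at 7.55% or less.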

How the data were processed

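RNA-seq libraries of PLC cells were used, 1 each for NTC, shRBBP5 and shHKDC1. Per the labels' protocols, TRIzol served for the extraction of total RNA and HiScript III RT SuperMix for the libraries. The submitters' processing notes name HISAT2 2.2.1, StringTie 1.3.4, DESeq2 1.28.1 and hg19 without their roles. The authors deposited 1 table of estimated counts (expected counts), unscaled, whose columns were matched to samples by abbreviation. Low values pile up at 4 units, so 4 units were taken as 1 fragment; this was decided with the values in view, and every interval rests on it.

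RefSeq transcript rows (27357 of 27403 matched a symbol of the RefSeq GRCh38.p14 table) were summed per gene. A named gene has all its RefSeq transcripts on rows; 392 symbols with only some were kept apart. TMM factors (edgeR 4.0.16, R 4.3.3) were 1.083 (NTC), 1.032 (shRBBP5) and 0.894 (shHKDC1). Log2 ratios used a pseudocount of 0.5 units, and intervals were exact 95% Clopper-Pearson intervals of a conditional binomial on fragments. Fragments carry no molecular identifiers, so that even counting error may be understated. At this depth 3 fragments came to 0.0685 CPM in NTC and 0.0752 in shRBBP5. The rule was run on simulated data that held counting noise alone and the same 4 units per fragment. Such data cannot show false calls from differences between cultures or from a wrong unit size. Other steps used Python 3.11.15, NumPy 2.4.6, SciPy 1.17.1 and pandas 2.3.3.

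The members, the 24 gene lists and the naming rule were chosen with earlier results of these data known. The rule named called genes with a mean of at least 2 CPM, the 15 highest and 15 lowest called genes with at least 3 fragments in both libraries, called list members and noncoding genes, measured H3K4 genes, the 10 genes with most counts, and 6 extreme and 6 most abundant called loci each way. Alternatives covered scaling, filters, pseudocount and fold bound. Some genes that the rule would name are not reported here.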

Additional observations from a re-analysis of the deposited data

How the results depend on the processing

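Dropping the CPM filter gave 135 higher and 284 lower named genes and 411 lower loci. With a mean of at least 5 CPM, 0 named genes were higher and 7 lower, and 113 loci higher and 157 lower. With a log2 bound of 1.5, 3 named genes were higher and 23 lower, and 72 loci higher and 81 lower. These settings change which features can be called by construction. The median ratio of the loci, 0.023 with TMM, was −0.047 with total counts and −0.011 with upper-quartile factors, so its sign follows the scaling. The median of the named genes was −0.20 with TMM and −0.27 with total counts. The higher share of named calls was 20.7% with TMM and 32.2% with no CPM filter.

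Of the 111 called named genes, 4 lost their call with DESeq2 size factors (HK2, ZNF773, N4BP2 and OGDHL), 2 with total counts or upper-quartile factors (LYRM9 and LINC00910), 8 with a pseudocount of 5 units, and 0 with TMM from NTC and shRBBP5 alone or with each unit taken as 1 fragment. Other measured named genes gained a call: 14 with total counts, 8 with upper-quartile factors and 1 with DESeq2 size factors. With each unit taken as 1 fragment 3 were gained, and with a pseudocount of 5 units 0. Without the stretch of loci numbered 13501 to 14000, an alternative chosen after seeing the data, 168 loci were higher and 245 lower. No paired analysis was possible because each group has 1 library. Depth limits the least covered genes: 15 of the 111 called genes had fewer than 20 fragments in NTC or in shRBBP5.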

Other observations

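A further 74 measured genes had some of their RefSeq transcripts on rows and the rest elsewhere, so that their values cover part of the gene. Of these, 6 were lower (8.11%, near the 8.67% of all named genes), 0 higher and 68 neither. F11, coagulation factor XI of hepatocytes, was at 2.76 CPM in NTC, 0.614 in shRBBP5 and 0.465 in shHKDC1 (log2 −2.16 [−2.82 to −1.51]). ANO5, a membrane protein of the anoctamin family, was at 9.67, 3.57 and 5.06 CPM (−1.44 [−1.73 to −1.17]). APC, the tumour suppressor that holds beta-catenin in check, was at 9.54, 4.31 and 3.78 CPM (−1.15 [−1.41 to −0.89]). ITPR2, a calcium release channel of the endoplasmic reticulum, was at 8.84, 4.27 and 2.81 CPM (−1.05 [−1.32 to −0.79]). PSD3 and NEK1 had ratios of −1.15 and −1.03. All 6 were lower than NTC in both knockdown libraries, which share that control, and whether the missing transcripts moved with them was not analysed here.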
